A study of Rattus norvegicus with 11 samples.

Results

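The secretory pathway genes described here are 48 genes of the rat genome whose products bring proteins into the endoplasmic reticulum (ER), fold them there and carry them to and from the Golgi apparatus. They were chosen by symbol: the subunits of the signal recognition particle (Srp), the Sec61, Sec62 and Sec63 channel genes, the Ssr, Sec11 and Spcs genes, the ER chaperones Hspa5, Hsp90b1, Calr and Canx, the Pdia isomerases, the Sec genes of the COPII coat and of the Sec22 family, the KDEL receptors and the COPI coat genes. Earlier results of these data were known when this rule was chosen. The table analysed here names 14506 genes, 1 probe set standing for each, and 48 of them met the rule. In the RefSeq annotation 61 rat symbols meet it, and the remaining 13, among them Spcs2, Spcs3, Sec23b and Sec24c, were not analysed here.

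The study followed the rat embryonic stem cell line DAc2 on 11 Affymetrix Rat Gene 1.0 ST arrays while the cells were turned into stem cells of the hypoblast kind, named cHypoSC in the labels. Both series of cultures came from that 1 line. In the feeder series the stem cells had grown on mouse embryonic fibroblasts in N2B27 medium with 3 µM CHIR99021 (a GSK3 inhibitor) and 0.5 µM PD0325901 (a MEK inhibitor), and 1 array each covered days 7, 17 and 32 of conversion and day 0, the stem cells. In the feeder-free series they had grown on laminin in the same base medium with CHIR99021 again at 3 µM, PD0325901 raised to 2 µM and human BMP4 added at 5 ng/mL, with 2 arrays each for days 7, 17 and 32 and 1 for day 0. Conversion in both used a medium made for rat multipotent adult progenitor cells, which holds fetal bovine serum at 2% beside LIF, EGF and PDGF. Days 17 and 32 together are called the established cells here.

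Proteins made for the ER, the cell surface or export carry a signal peptide, which the signal recognition particle binds as it leaves the ribosome, and the Sec61 channel then threads the chain into the ER. Chaperones and disulphide isomerases fold the chain, COPII-coated vesicles carry it towards the Golgi, and COPI-coated vesicles and the KDEL receptors bring escaped ER residents back. Cells derived from the hypoblast, such as those of the parietal endoderm, are known for secreting large amounts of basement membrane protein, and the unfolded protein response is the signalling system that raises many of these genes when folding demand in the ER grows.

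Levels are the authors' log2 expression values, so 1 unit is a doubling of the signal, and the level of 1 probe set is not compared with that of another. All 9 hypoblast markers examined (Gata4, Gata6, Sox17, Pdgfra, Sox7, Foxa2, Dab2, Cubn and Lama1) rose in established cells over day 0. Of the 5 stem cell markers measured, Nanog, Sox2, Esrrb and Pou5f1 fell and Klf4 rose. The mean of the 11 fibroblast markers was 10.36 on the feeder array of day 0, 9.29 at day 7, 8.84 at day 17 and 8.78 at day 32, against 8.60 to 8.74 on the 7 feeder-free arrays, and all 11 were higher on the feeder than on the feeder-free array of day 0. The 6 trophoblast markers averaged 10.66 on the feeder array of day 7 and 12.03 and 12.17 on the feeder-free arrays of day 7, against 9.85 on the feeder and 9.94 on the feeder-free array of day 0. Single trophoblast markers changed from day 0 to day 7 by -3.64 to 3.04 on feeders and by -1.43 to 4.31 feeder-free. Of these changes 5 were above 0 on feeders and 4 feeder-free. The part of all these markers, and of the cells that carry them, in the values below was not tested. In a bulk sample, fewer cells of a kind and less RNA per cell cannot be told apart.

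The promoters of the members were read for the letters known to bind the factors of the unfolded protein response, since the luminal chaperones among them are textbook targets of that response. RefSeq's promoter table for the build GRCr8 held 42 of the 48 genes, and the 250 bases before each start were searched on both strands. The ER stress response element, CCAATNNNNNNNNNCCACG, was present in 4 of the 42 (9.52%), against 22 of all 33469 promoters in the table (0.0657%). The 4 were Hspa5, Hsp90b1, Canx and Calr, whose sequences are shown because all 4 chaperone genes of the set carried it. The rule takes these 4 by name, and the luminal chaperones were known targets beforehand. The higher share therefore tells nothing about the rest of the set, where no promoter that was read held the element. The 6 genes without a promoter there, Sec24d, Sec61a1, Sec61a2, Kdelr2, Pdia3 and Pdia6, were not searched. Capitals mark the element, or its reverse complement CGTGGNNNNNNNNNATTGG, and Hsp90b1 held it once in each orientation. The windows are chr3:38452766-38453015 (+ strand) for Hspa5, chr7:23012294-23012543 (- strand) for Hsp90b1, chr10:35157858-35158107 (- strand) for Canx and chr19:40213117-40213366 (+ strand) for Calr.
Hspa5: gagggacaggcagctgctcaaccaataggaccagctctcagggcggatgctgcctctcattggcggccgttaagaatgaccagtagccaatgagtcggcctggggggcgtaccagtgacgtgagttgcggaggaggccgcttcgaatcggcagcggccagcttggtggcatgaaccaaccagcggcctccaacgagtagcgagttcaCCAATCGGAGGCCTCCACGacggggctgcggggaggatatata
Hsp90b1: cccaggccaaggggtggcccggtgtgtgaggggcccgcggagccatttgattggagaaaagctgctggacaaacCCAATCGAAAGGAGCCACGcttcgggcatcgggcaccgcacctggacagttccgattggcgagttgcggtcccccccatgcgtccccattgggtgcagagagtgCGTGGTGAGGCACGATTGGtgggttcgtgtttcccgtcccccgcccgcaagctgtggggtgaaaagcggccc
Canx: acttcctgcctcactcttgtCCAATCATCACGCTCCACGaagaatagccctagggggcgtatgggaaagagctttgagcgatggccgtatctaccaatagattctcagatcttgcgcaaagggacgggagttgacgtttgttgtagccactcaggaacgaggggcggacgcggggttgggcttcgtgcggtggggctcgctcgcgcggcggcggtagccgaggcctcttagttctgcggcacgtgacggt
Calr: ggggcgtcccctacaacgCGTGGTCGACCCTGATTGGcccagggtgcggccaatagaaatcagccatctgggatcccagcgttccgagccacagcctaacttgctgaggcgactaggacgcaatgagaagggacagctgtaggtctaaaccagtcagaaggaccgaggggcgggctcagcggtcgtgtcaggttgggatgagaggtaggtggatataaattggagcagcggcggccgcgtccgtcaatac

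The shorter unfolded protein response element TGACGTGG, or its reverse complement CCACGTCA, was found in another 4 of the 42 (9.52%) and in 174 of the 33469 promoters (0.52%). These were Sec23a and Copb2, which encode coat subunits, the KDEL receptor gene Kdelr3, and Srp19 of the signal recognition particle. The elements can share the letters CCACG, and none of the promoters read held both. Capitals again mark the match, within stretches at chr6:82440968-82441015 (- strand, Sec23a), chr7:112959511-112959558 (+ strand, Kdelr3), chr8:108040657-108040686 (+ strand, Copb2) and chr18:26205713-26205760 (+ strand, Srp19).
Sec23a: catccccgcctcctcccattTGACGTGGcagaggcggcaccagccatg
Kdelr3: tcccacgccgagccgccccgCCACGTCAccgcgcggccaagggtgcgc
Copb2: agagccgcttcccggaagttCCACGTCAgt
Srp19: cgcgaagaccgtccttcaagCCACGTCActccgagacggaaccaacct
A match is a run of letters and not a site shown to be bound.

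The first comparison set the established cells against the stem cells of day 0, with culture as a term. Of the 48 secretory pathway genes 34 rose and 0 fell at an adjusted p under 0.05 in limma. Of all 14506 genes 19.7% rose and 15.1% fell, and the counts by role below stand against the same shares. The median log2 change of the 48 was 0.53, against 0.05 over all genes, and 43 of the 48 changes were above 0. The rises ran from 0.26 (Srp68) to 3.33 (Sec24d), and 4 of them passed a doubling: those of Sec24d, Sec24a, Copg1 and Pdia4. In 25 genes all 6 established arrays lay above both arrays of day 0, in 1 (Sec31b) all lay below, and in 22 they overlapped. Over all genes 19.8% lay wholly above and 14.5% wholly below. Within the feeder series 35 genes rose and 1 fell (21.2% and 16.2% of all genes), and within the feeder-free series 33 rose and 2 fell (21.7% and 19.6%). In 36 genes every established array lay above day 0 of its own culture in both series. This rule is looser, with a single day 0 array per culture. The share of all genes that meet it was not counted, and 19.8% is not its counterpart.

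**Figure D1:**
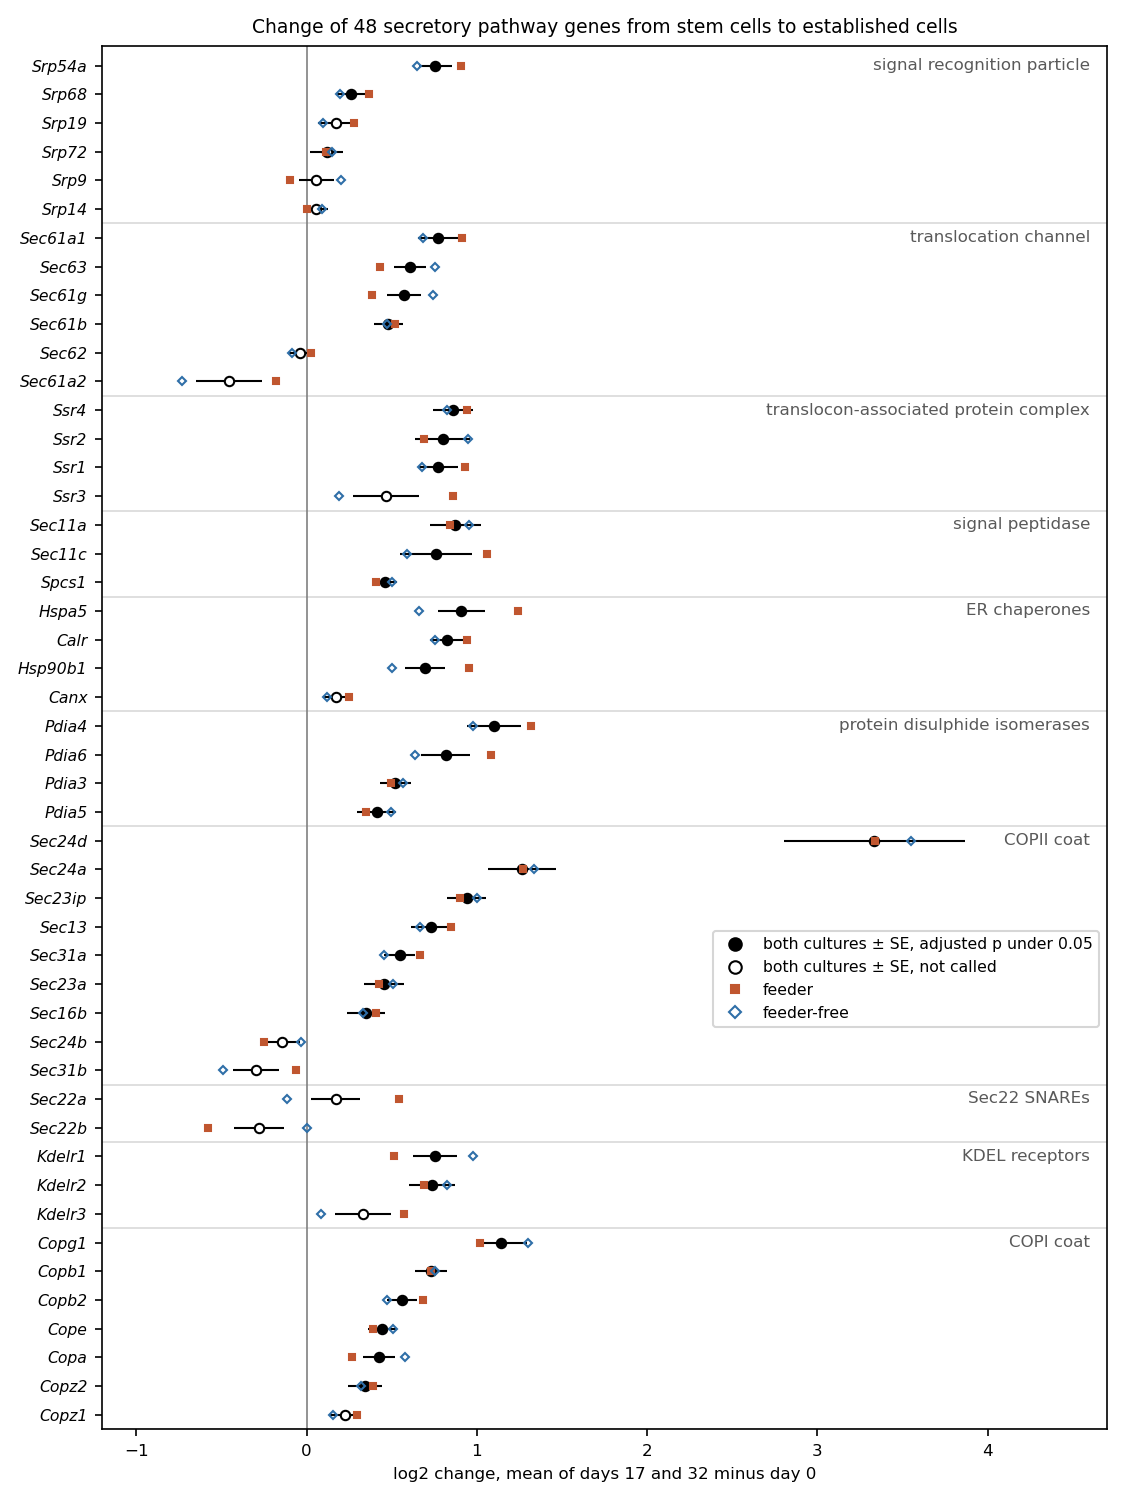
Log2 change of each of the 48 secretory pathway genes, mean of days 17 and 32 minus day 0, grouped by role. Circles are the estimate over both cultures with its standard error, filled where the adjusted p was under 0.05, squares are the feeder change and diamonds the feeder-free change. Sec24d stands at 3.33, far to the right of the others, which lie between -0.45 and 1.27.

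The 4 ER chaperones included 3 that rose. Hspa5 encodes BiP, the luminal Hsp70 that binds unfolded chains and holds the stress sensors of the ER inactive. Its level on the feeder arrays of days 0, 7, 17 and 32 was 13.92, 14.49, 15.17 and 15.16. Feeder-free it was 14.56 at day 0, 15.04 and 15.09 at day 7, 15.20 and 15.29 at day 17, and 15.24 and 15.16 at day 32. The established arrays spanned 0.13 and lay above both day 0 arrays, and the change was 0.91 ± 0.14 (SE, adjusted p = 0.00125).

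Hsp90b1 encodes GRP94, the Hsp90 of the ER lumen. It measured 13.79, 14.09, 14.71 and 14.77 on feeder days 0, 7, 17 and 32, and 14.54, then 14.73 and 14.83, then 15.04 and 15.12, then 15.03 and 14.98 on the same days feeder-free. The established arrays of each culture were above its day 0, by 0.70 ± 0.12 in the fit (adjusted p = 0.00194). Calr encodes calreticulin, the soluble lectin chaperone that binds glycoproteins and calcium. It measured 14.17, 14.55, 15.10 and 15.11 in the feeder series, and 14.39, then 14.92 and 15.00, then 15.12 and 15.21, then 15.18 and 15.08 feeder-free, and was 0.83 ± 0.10 higher in established cells (adjusted p = 0.000452). Its 6 established arrays spanned 0.13, feeder and feeder-free together.

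Canx encodes calnexin, the membrane-bound relative of calreticulin. It measured 14.56, 14.58, 14.88 and 14.74 on the feeder arrays, and 14.69, then 14.67 and 14.73, then 14.78 and 14.90, then 14.84 and 14.75 feeder-free. All 6 established arrays lay above both of day 0, but only by 0.18 ± 0.08, which did not pass (adjusted p = 0.114). Canx carries the same promoter element as Hspa5, Hsp90b1 and Calr, and any part of the element in these changes was not tested.

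All 4 Pdia genes measured rose, which encode disulphide isomerases, enzymes that form and reshuffle disulphide bonds in new chains. Pdia4 (ERp72) stood at 12.31, 12.40, 13.62 and 13.63 on feeder days 0, 7, 17 and 32, and at 12.19, then 12.68 and 12.75, then 13.17 and 13.23, then 13.17 and 13.09 feeder-free. No established array came near day 0, and the change of 1.10 ± 0.16 (adjusted p = 0.00106) was a factor of 2.14. Pdia6 (P5) stood at 12.58, 12.76, 13.60 and 13.72 feeder, and at 13.85, then 14.08 and 14.18, then 14.47 and 14.65, then 14.46 and 14.34 feeder-free. Its established feeder arrays were still below the feeder-free array of day 0, so that the groups overlapped across cultures though not within either, and the change with culture in the fit was 0.82 ± 0.14 (adjusted p = 0.00257).

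Pdia3 (ERp57), which works on glycoproteins together with calreticulin and calnexin, stood at 14.75, 14.78, 15.21 and 15.29 in the feeder series, and at 14.57, then 14.88 and 14.94, then 15.11 and 15.23, then 15.14 and 15.08 feeder-free. The established arrays were all above day 0, by 0.52 ± 0.09 (adjusted p = 0.00223). Pdia5 was 0.41 ± 0.11 higher in established cells (adjusted p = 0.0216), after a level at day 7 under that of day 0 in both cultures.

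At the entry to the ER 4 of the 6 channel genes and 2 of the 6 signal recognition particle genes rose. Sec61a1, the channel's pore-forming subunit, measured 13.71, 13.79, 14.58 and 14.66 on feeder days 0, 7, 17 and 32, and 14.16, then 14.50 and 14.49, then 14.74 and 14.94, then 14.88 and 14.81 feeder-free. The established arrays were above both of day 0, by 0.77 ± 0.12 (adjusted p = 0.00132). Sec61b, a small accessory subunit, measured 12.71, 12.78, 13.20 and 13.26 in the feeder series, and 13.15, then 13.43 and 13.48, then 13.55 and 13.60, then 13.71 and 13.62 feeder-free, with no overlap and a change of 0.48 ± 0.09 (adjusted p = 0.00273). The third subunit gene, Sec61g, rose by 0.57 and Sec63, a membrane protein that brings BiP to the channel, by 0.61. Sec62, its partner, did not pass at -0.04 (adjusted p = 0.74), and neither did Sec61a2, the second alpha gene, at -0.45 ± 0.19 (adjusted p = 0.106). So Sec61a1 rose while its paralog's estimate was below 0, and the difference between them was not tested.

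The translocon-associated protein complex sits beside the channel and helps some signal peptides open it, and 3 of its 4 genes rose. Ssr1 measured 12.84, 12.91, 13.76 and 13.79 feeder, and 13.13, then 13.49 and 13.47, then 13.77 and 13.85, then 13.84 and 13.78 feeder-free. Both cultures ended close together, 0.77 ± 0.12 above day 0 (adjusted p = 0.00138). Ssr4 rose by 0.86 and Ssr2 by 0.80, while Ssr3 at 0.47 ± 0.19 did not pass (adjusted p = 0.0976). The signal peptidase, which removes the signal peptide, had its 3 measured genes higher: the alternative catalytic subunits Sec11a (0.87 ± 0.15) and Sec11c (0.76 ± 0.21), and the accessory subunit Spcs1 (0.46 ± 0.07), with adjusted p values of 0.00211, 0.0214 and 0.00174 in that order.

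Of the 6 signal recognition particle genes 2 rose, against 19.7% of all genes. Srp54a, which encodes the subunit that binds signal peptides, measured 12.04, 12.35, 12.87 and 13.02 on feeder days 0, 7, 17 and 32, and 12.37, then 12.73 and 12.74, then 13.01 and 13.05, then 13.05 and 12.96 feeder-free. The established arrays were all higher, by 0.76 ± 0.10 (adjusted p = 0.000573). Srp68 rose by 0.26 ± 0.09 (adjusted p = 0.0475). Srp9, of the part that slows translation, measured 11.12, 10.77, 11.10 and 10.95 feeder, and 11.51, then 11.48 and 11.64, then 11.67 and 11.79, then 11.77 and 11.61 feeder-free. Its established arrays straddled day 0 and the estimate was 0.06 ± 0.10 (adjusted p = 0.716). Srp14, its partner, Srp19 and Srp72 had estimates from 0.05 to 0.17 and did not pass. Srp72 was the 1 gene with several probe sets, 3 in all, whose changes lay between 0.11 and 0.33 in feeder and between 0.12 and 0.15 in feeder-free cells.

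The COPII coat buds vesicles from the ER, and 7 of the 9 genes grouped with it here rose, against 19.7% of all genes. The 7 include Sec16b, which was dim on all 11 arrays. The Sec24 proteins are the coat subunits that choose cargo, and Sec24d, in zebrafish needed for the export of collagen, made the greatest change of the 48 genes. Its probe set 10818854 measured 9.75 and 9.96 on the feeder arrays of days 0 and 7 and 13.18 and 13.00 at days 17 and 32. Feeder-free it measured 9.42 at day 0, 12.42 and 12.54 at day 7, 13.09 and 13.10 at day 17, and 12.88 and 12.82 at day 32. The low arrays were thus both of day 0 and the feeder array of day 7, with more than 2 log2 units between them and the others. Established cells were 3.33 ± 0.53 above day 0 (adjusted p = 0.00155), a factor of 10.1.

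Of the other Sec24 genes, Sec24a rose by 1.27 ± 0.20 (adjusted p = 0.00148), a factor of 2.41, and Sec24b had an estimate of -0.15 ± 0.11 (adjusted p = 0.356). The difference between the 3 was not tested. The inner coat partner Sec23a measured 12.26, 11.80, 12.57 and 12.79 on feeder days 0, 7, 17 and 32, and 11.90, then 11.71 and 11.96, then 12.40 and 12.45, then 12.45 and 12.33 feeder-free. Established arrays were just above day 0, and Sec23a rose by 0.45 ± 0.12 (adjusted p = 0.0141). The outer coat genes Sec13 and Sec31a rose by 0.73 and 0.55, and Sec23ip, whose product binds Sec23, by 0.94.

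Sec16b and Sec31b were dim on all 11 arrays. Their levels, 7.52 to 8.08 and 7.25 to 8.04, never exceeded 8.10, the level below which 95% of the values of 1239 olfactory and vomeronasal receptor genes fell, so the passing change of Sec16b (0.35 ± 0.11, adjusted p = 0.0389) lies in the range of those receptor genes. The 2 Sec22 genes, of which Sec22b encodes a SNARE of ER to Golgi transport, did not pass. Their estimates were 0.17 for Sec22a and -0.28 for Sec22b.

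COPI vesicles return material to the ER, and 6 of the 7 coat genes rose. Copa measured 13.61, 13.61, 13.88 and 13.87 on feeder days 0, 7, 17 and 32, and 13.31, then 13.67 and 13.81, then 13.89 and 13.91, then 13.91 and 13.85 feeder-free. The 6 established arrays, within 0.06 of each other, were above both of day 0, and the change was 0.43 ± 0.10 (adjusted p = 0.00801). Copg1 changed more, by 1.14 ± 0.15 (adjusted p = 0.00064), a factor of 2.21. Copb1, Copb2, Cope and Copz2 rose by 0.73, 0.56, 0.45 and 0.34, while Copz1 at 0.23 did not pass (adjusted p = 0.084).

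The KDEL receptors bind chaperones that have reached the Golgi, and COPI vesicles carry them home. Kdelr1 measured 13.22, 13.10, 13.70 and 13.77 on feeder days 0, 7, 17 and 32, and 12.14, then 12.57 and 12.75, then 13.09 and 13.20, then 13.18 and 13.01 feeder-free. Kdelr2 measured 14.08, 13.83, 14.78 and 14.77 feeder, and 13.67, then 14.07 and 14.14, then 14.48 and 14.56, then 14.51 and 14.44 feeder-free. Both rose, Kdelr1 by 0.75 ± 0.13 (adjusted p = 0.00224) with groups that overlapped across cultures, and Kdelr2 by 0.74 ± 0.14 (adjusted p = 0.00309) with groups that did not. Kdelr3 measured 12.79, 13.14, 13.33 and 13.40 feeder, and 12.55, then 11.88 and 12.03, then 12.65 and 12.62, then 12.73 and 12.52 feeder-free. Its feeder-free arrays dipped at day 7 and came back to the level of day 0, and the estimate over both cultures was 0.33 ± 0.16 (adjusted p = 0.155).

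**Figure D2:**
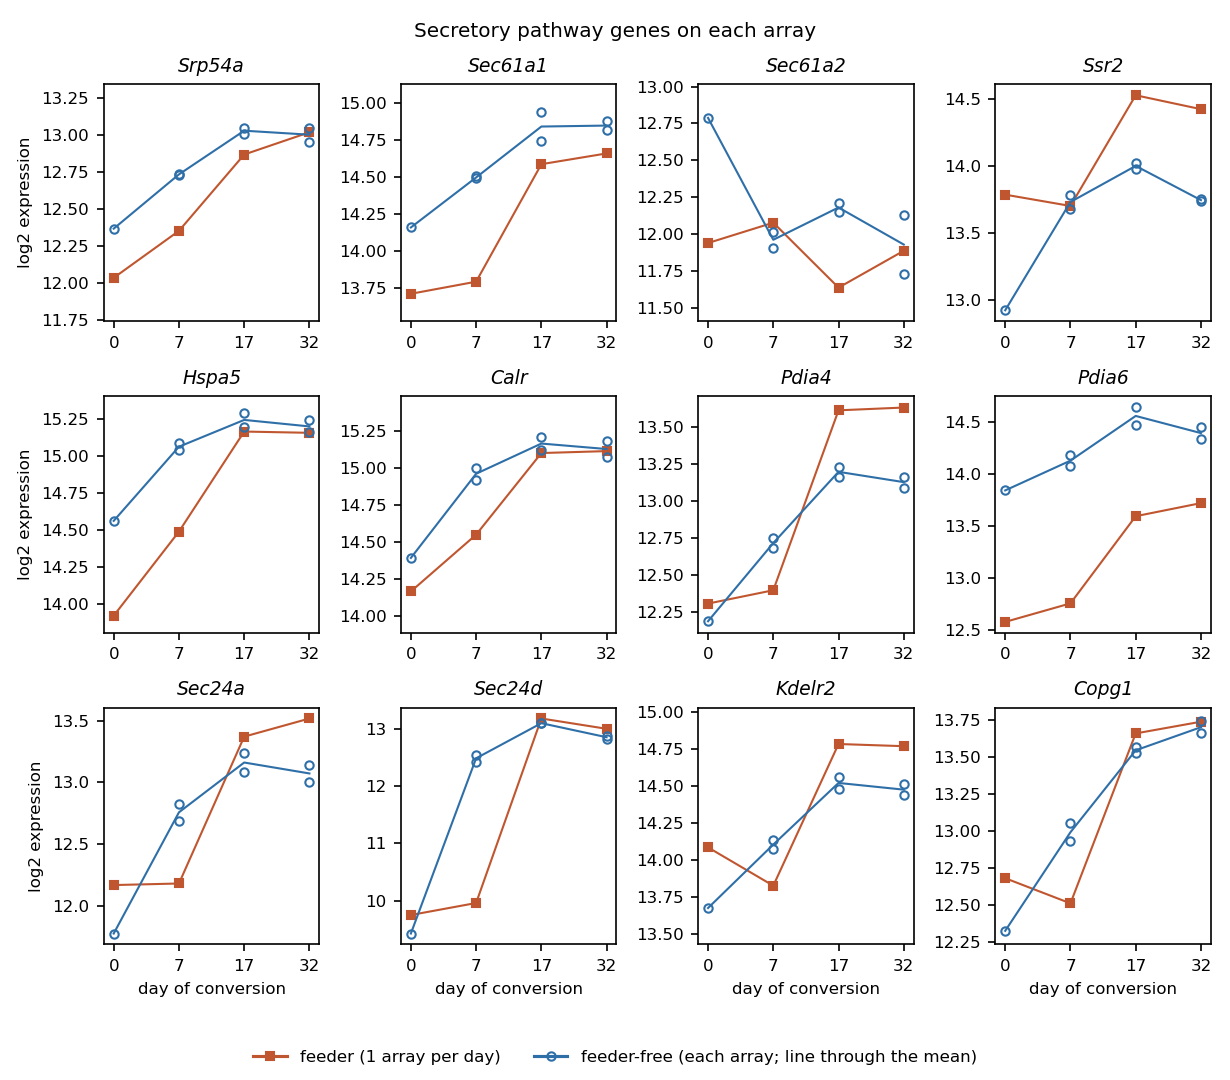
Log2 expression value of chosen secretory pathway genes against day, on evenly spaced day positions and with a separate vertical scale for each gene. Squares joined by a line are the single feeder arrays, circles the feeder-free arrays with a line through their mean. Sec24d is near 12.5 feeder-free and at 9.96 on feeders at day 7, and Sec61a2 is the gene drawn whose line does not climb.

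The timing of the rise was read from the steps between days. Between day 0 and day 7, 6 of the 48 genes rose and 0 fell, against 6.74% and 9.27% of all genes, and the medians were 0.20 and -0.04. The 6 were Hspa5 (0.58 ± 0.15), Calr (0.52 ± 0.11), Sec23ip (0.50 ± 0.13), Copb1 (0.40 ± 0.11), Sec63 (0.38 ± 0.10) and Srp54a (0.37 ± 0.11), with adjusted p values from 0.0178 to 0.0479. This count rested on few arrays. It was 0 without the feeder-free array of day 0 or without either feeder-free array of day 7, and 22 (21 of them rises) without the feeder array of day 7.

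Between day 7 and day 17, 20 genes rose and 0 fell, against 9.1% and 3.65% of all genes, and the median was 0.38 against 0.09. Copg1 (0.75 ± 0.15), Pdia4 (0.73 ± 0.16), Pdia5 (0.73 ± 0.11), Sec23a (0.65 ± 0.11), Kdelr2 (0.60 ± 0.13), Pdia6 (0.57 ± 0.14), Cope (0.54 ± 0.08) and Sec11a (0.53 ± 0.15) led them, and adjusted p values ran from 0.00807 to 0.0494. All 4 Pdia genes were among the 20, the last of them Pdia3 at an adjusted p of 0.0494. The 4 chaperones did not pass, with Hsp90b1 next to the threshold at 0.0508, and 3 of them rose in this step within the feeder series. Sec24d, at 1.48 ± 0.53, did not pass here (adjusted p = 0.0974). It was higher at day 17 in both cultures, by 3.22 on feeders and 0.61 feeder-free, and this fit counts that difference as spread. Leaving out 1 array gave between 2 and 22 calls, the lowest without the second feeder-free array of day 17, and a further quantile normalization gave 6 (5 rises and 1 fall).

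Between day 17 and day 32 limma called 0 of the 48 genes and 0% of all genes. At an unadjusted p under 0.05 there were 2 secretory pathway genes and 1057 genes in all. The 3 greatest estimates were -0.42 ± 0.10 for Copz2 (adjusted p = 0.269), -0.32 ± 0.11 for Sec24b (adjusted p = 0.483) and -0.30 ± 0.19 for Ssr3 (adjusted p = 0.856). Within the feeder series 0 rose and 0 fell (0.165% and 1.38% of all genes). Within the feeder-free series 0 rose and 2 fell (2.15% and 5.17%): Copz2 fell by 0.51 and Sec24b fell by 0.42, with adjusted p values of 0.00927 and 0.0226.

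At the median the cultures did not take these steps at the same time, though some genes changed alike in the first. Between day 0 and day 7 Hspa5 changed by 0.57 on feeders and 0.50 feeder-free, and Hsp90b1 by 0.31 and 0.24. Within feeder-free cultures 21 of the 48 genes rose and 2 fell between day 0 and day 7 (16.2% and 20.7% of all genes), and on feeders 1 rose and 2 fell (7.4% and 7.49%). Between day 7 and day 17, 30 rose and 0 fell on feeders (19% and 12.6% of all genes), against 22 and 0 feeder-free (16.5% and 7.36%). The median change on feeders was 0.02 in the first step and 0.53 in the second, against 0.30 and 0.28 feeder-free. Among the 34 genes that rose in established cells, the median share of the whole rise reached by day 7 was 7.18% on feeders and 58.8% feeder-free. The feeder-free share was the larger in 33 of the 34 (97.1%), Sec31a being the exception, and in 80.7% of all 2856 genes that rose, whose median shares were 16.2% on feeders and 64.3% feeder-free. The 9 hypoblast markers, too, were all lower on the feeder array of day 7 than on both feeder-free arrays of that day.

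**Figure D3:**
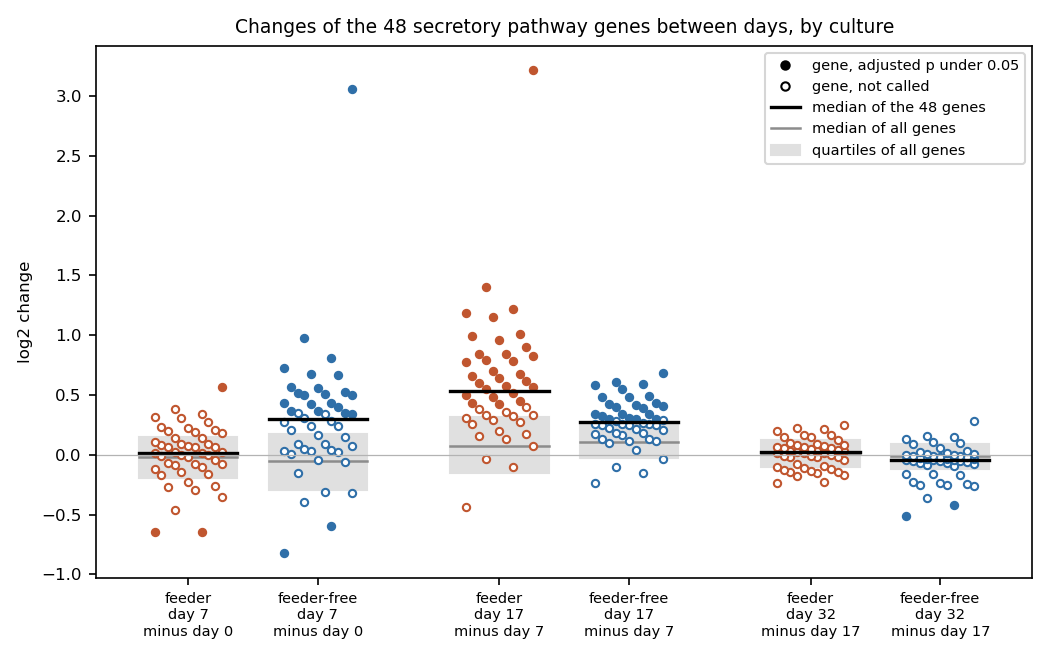
Log2 change of the 48 secretory pathway genes in each step between days, feeder beside feeder-free. Filled points passed an adjusted p under 0.05, the black bar is the median of the 48, and the grey line and band are the median and quartiles of all 14506 genes. The black bar stands at 0.02 on feeders and 0.30 feeder-free for day 7 minus day 0, and at 0.53 on feeders and 0.28 feeder-free for day 17 minus day 7.

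The difference between the cultures was itself tested, as the feeder change minus the feeder-free change, with the single feeder arrays assumed to vary like the feeder-free pairs. For the first step 2 of the 48 genes had a positive and 9 a negative difference at an adjusted p under 0.05, against 10.9% and 11.2% of all genes. Sec24d changed by 0.21 on feeders and by 3.06 feeder-free, a difference of -2.85 ± 0.19 (adjusted p = 1.47e-07). Sec24a followed with 0.01 on feeders and 0.98 feeder-free (-0.97 ± 0.20, adjusted p = 0.00288), then Ssr2 with -0.08 and 0.81 (-0.89 ± 0.19, adjusted p = 0.00286) and Copg1 with -0.17 and 0.67 (-0.84 ± 0.19, adjusted p = 0.00495). Both signal peptidase catalytic genes and the receptors Kdelr1 and Kdelr2 lay on the same side. The positive differences were those of Kdelr3, which changed by 0.34 on feeders and -0.59 feeder-free (0.94 ± 0.20, adjusted p = 0.00391), and of Sec61a2, with 0.14 on feeders and -0.82 feeder-free (0.96 ± 0.24, adjusted p = 0.0087). Sec22b fell by 0.65 on feeders from a day 0 level of 13.20, against 12.24 on the feeder-free array of day 0.

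For the second step 11 differences were positive and 0 negative, against 10.7% and 8.97% of all genes. Sec24d changed by 3.22 on feeders and 0.61 feeder-free (2.61 ± 0.17, adjusted p = 2e-07), and Sec11c by 1.40 and 0.31 (1.10 ± 0.18, adjusted p = 0.000497). The whole translocon-associated complex was among the 11, with differences of 0.52 for Ssr1, 0.56 for Ssr2, 0.73 for Ssr3 and 0.54 for Ssr4. Over the whole course the differences were fewer: 3 positive and 1 negative, against 6.96% and 5.75% of all genes. Hspa5 gained 1.24 on feeders and 0.66 feeder-free (0.58 ± 0.17, adjusted p = 0.0342), Ssr3 0.86 and 0.19 (0.67 ± 0.19, adjusted p = 0.0326), and Sec22a 0.54 and -0.12 (0.66 ± 0.17, adjusted p = 0.0228). Sec22b changed by -0.58 on feeders and 0.00 feeder-free (-0.58 ± 0.17, adjusted p = 0.0422). These tests share the arrays of days 0, 7 and 17, so a high or low array of day 7 moves the first and the second step in opposite directions. With limma array weights the counts were 1 in the first step and 1 in the second, Sec24d both times, and 0 over the whole course. Without the second feeder-free array of day 7 the second step had 5 calls.

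A separate question is whether the cultures differed in level over all days. With day in the fit, 9 secretory pathway genes were higher and 18 lower on feeders than feeder-free, against 15.5% and 17.2% of all genes. On all 4 days the feeder array was above the feeder-free mean for 9 genes and below it for 20, against 18.3% and 26.3% of all genes. The lowest on feeders were Sec11c (-1.30 ± 0.16), Srp19 (-1.17 ± 0.08), Pdia6 (-1.06 ± 0.11), Copb2 (-0.99 ± 0.07), Srp72 (-0.83 ± 0.07), Srp68 (-0.74 ± 0.07), Sec62 (-0.68 ± 0.06) and Srp9 (-0.66 ± 0.08), with adjusted p values from 1.97e-05 to 0.000387. Of the 6 signal recognition particle genes 5 were lower, with Srp54a at -0.21 not passing (adjusted p = 0.0611). The highest were Sec61g (0.85 ± 0.08), Ssr4 (0.83 ± 0.09), Kdelr3 (0.76 ± 0.12) and Kdelr1 (0.66 ± 0.10).

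Srp19 shows the pattern array by array. It measured 10.56, 10.59, 10.85 and 10.84 on feeder days 0, 7, 17 and 32, against 11.83 feeder-free at day 0, 11.82 and 11.91 at day 7, 11.91 and 12.18 at day 17, and 11.90 and 11.73 at day 32. The highest feeder array was far below the lowest feeder-free one, before conversion as well as at day 32. Sec61g ran the other way, at 13.40, 13.40, 13.78 and 13.78 on feeders, against 12.24, then 12.62 and 12.73, then 13.07 and 12.97, then 12.99 and 12.90 feeder-free. The fibroblast markers differed between the cultures mainly at days 0 and 7, with 11 of 11 higher on feeders at day 0 and 6 of 11 at day 32. The feeder layer and the mix of inhibitors and BMP4 cannot be told apart, nor can any handling that the 2 series did not share.

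**Figure D4:**
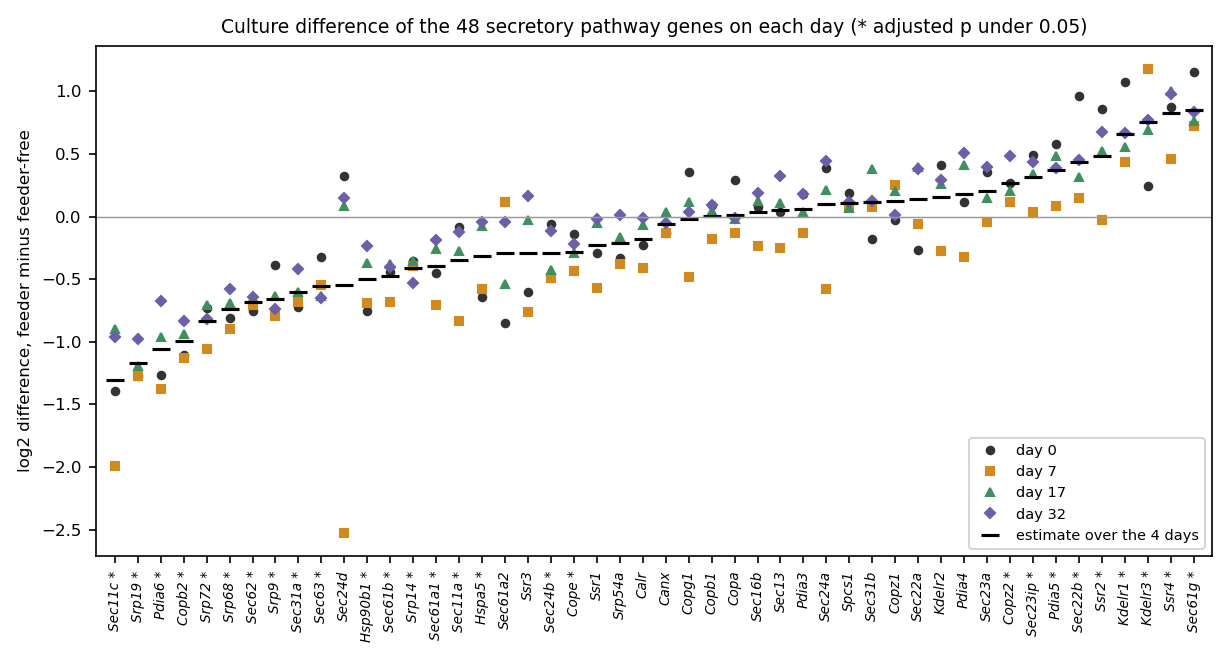
Feeder minus feeder-free difference in log2 level for each of the 48 secretory pathway genes, ordered by the estimate over the 4 days, which is drawn as a black dash. The other symbols are the differences on single days, and an asterisk marks an adjusted p under 0.05. Sec11c stands at -1.30 at one end and Sec61g at 0.85 at the other, and Sec24d has a day 7 symbol far below its others.

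The remaining genes of the pathway were followed through lists of textbook members, also chosen with earlier results of these data known. Of 13 sensors and factors of the unfolded protein response measured, 7 rose and 3 fell in established cells over day 0, where 19.7% of all genes rose and 15.1% fell, and the median was 0.50. Xbp1, the factor made active by splicing under ER stress, measured 11.55, 11.87, 13.97 and 13.97 on feeder days 0, 7, 17 and 32, and 12.24, then 14.16 and 14.20, then 14.20 and 14.33, then 14.20 and 14.15 feeder-free. Like Sec24d it was low on both day 0 arrays and on the feeder array of day 7, and it rose by 2.09 ± 0.39 (adjusted p = 0.00328).

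Creb3l2 encodes a membrane-bound factor that in mouse cartilage is needed for Sec23a expression. It measured 9.93, 10.64, 13.89 and 13.93 feeder, and 9.69, then 13.21 and 13.34, then 13.76 and 13.77, then 13.92 and 13.78 feeder-free, and rose by 3.93 ± 0.54. Its relative Creb3l1, which in mice acts on collagen genes of bone, rose by 3.64 ± 0.79. On feeders it measured 11.59 at day 0 and 10.73 at day 7, against 9.63 on the feeder-free array of day 0. Creb3, Atf6, Eif2ak3 (the kinase PERK) and Atf6b rose by 1.22, 0.85, 0.66 and 0.50. Ddit3 (CHOP) and Trib3, target genes of the PERK branch that are linked to cell death under lasting stress, fell by 1.31 and by 1.54 on the log2 scale, and the protease gene Mbtps2 fell by 0.38. Atf4, the factor of that branch, had an estimate of -0.07 ± 0.11 (adjusted p = 0.647).

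**Figure D5:**
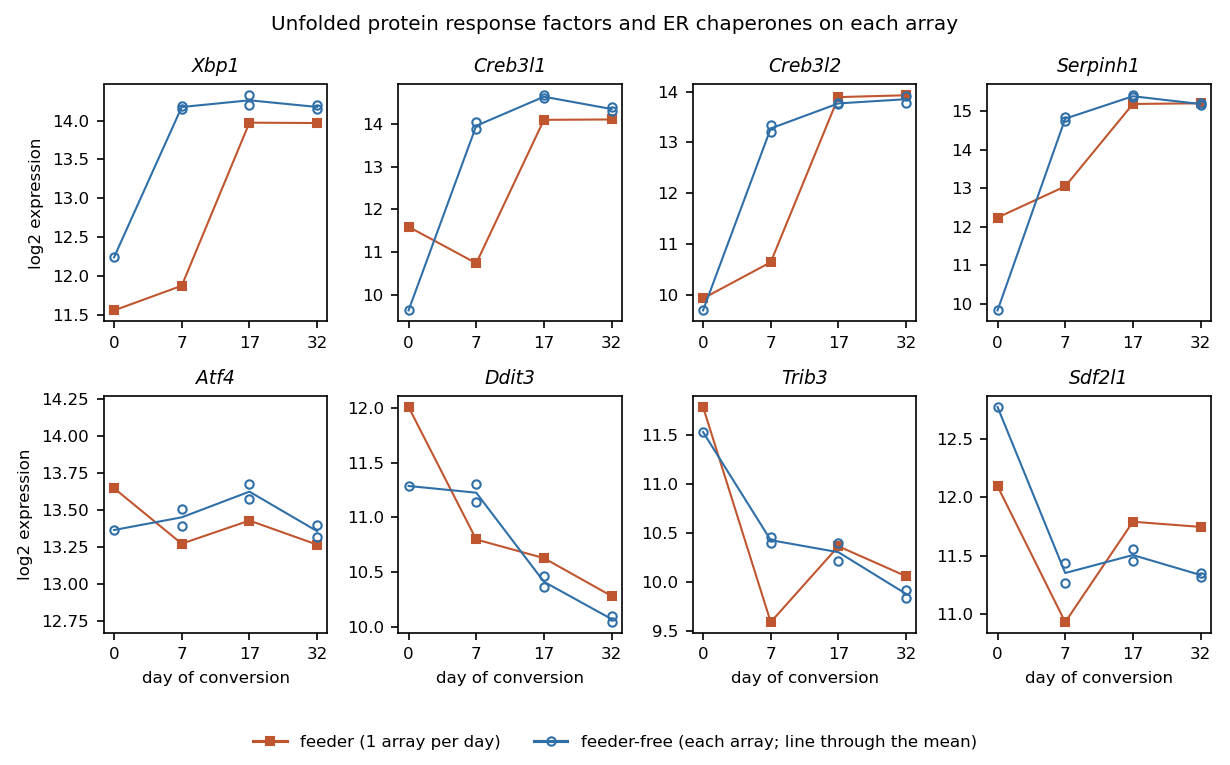
Log2 expression value of genes of the unfolded protein response, the collagen chaperone gene Serpinh1 and the BiP cofactor gene Sdf2l1 against day, on evenly spaced day positions and with a separate vertical scale for each gene. Squares are feeder arrays and circles feeder-free arrays. Xbp1 and Creb3l2 are high from day 7 feeder-free and from day 17 on feeders, while Ddit3 and Trib3 end below day 0 in both cultures.

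Among 20 other genes of ER folding and ER-associated degradation 14 rose and 1 fell in established cells, against 19.7% and 15.1% of all genes, with a median of 0.80. The greatest rises were of Serpinh1, the collagen chaperone HSP47, by 4.22, of Fkbp10, a prolyl isomerase for collagen, by 2.41, and of Ero1a, the oxidase that recharges the isomerases, by 2.40. Fkbp10 and Serpinh1 already measured 12.38 and 12.23 on the feeder array of day 0, against 8.78 and 9.82 on the feeder-free array of day 0. Sdf2l1, a BiP cofactor, fell by 0.91, while Dnajc3, another BiP cofactor, rose by 1.46. Of 11 genes for targeting, translocation and N-glycosylation 8 rose and 0 fell against the same shares (median 0.42), among them Rpn1, a subunit of the oligosaccharyltransferase, by 1.06 and Srprb, of the receptor for the signal recognition particle, by 0.82. Of 18 genes for coat assembly and ER to Golgi traffic 15 rose and 0 fell, again against 19.7% and 15.1% (median 0.58), led by the cargo receptor gene Surf4 (1.37), Tmed9 (1.34) and Preb (1.01), whose product loads Sar1 to start the COPII coat. The median over all genes in this comparison was 0.05.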

How the data were processed

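Expression was measured in 11 samples, 1 Affymetrix Rat Gene 1.0 ST array each. The authors deposited log2 expression values. RMA made them, per the submitters' processing notes, and its version and options are not given in the sources used here. All 11 columns shared a median of 8.97, and the step that set it is unknown. RMA draws low values together, which understates changes of dim genes. Of 29214 probe sets, 15310 had 1 gene symbol in the platform annotation, 323 several and 13581 none here; the brightest probe set stood for a gene, with no filter on dim genes. The number of arrays limits the precision: the SD of a feeder-free pair had a median of 0.0648 over the members.

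Groups came from the labels. limma 3.58.1 in R 4.3.3 (lmFit, eBayes) fitted day and culture over all 11 arrays, with 6 residual degrees of freedom. A fit with a mean for each of the 8 groups (3 residual degrees of freedom) gave changes within a culture and the tests of culture differences. Calls are at a Benjamini-Hochberg adjusted p under 0.05 over 14506 genes, and errors are standard errors of the fit. Nothing says that the 2 arrays of a feeder-free pair, called biological replicates, came from separate cultures, so the spread of these pairs may be technical. That spread alone lies behind the p values of the 8-group fit. The fit of day and culture also counts as spread any difference between the cultures in their course over the days. The fits were tested on simulated data. The members and lists were chosen with earlier results of these data known. All members could be named; in each comparison up to 8 called members per direction, by size of change, were given with their statistics, or the 3 largest where none passed, and 18 genes of central roles were described on every array. Alternatives were another normalization or centring, a filter on dim genes, the mean of a gene's probe sets, other variance settings, array weights, a replicate block, the 8-group fit, a fit without the feeder arrays, and a fit without each array in turn, as far as the comparison could still be fitted. After seeing the data, days 17 and 32 alone and a minimum log2 change of 0.5 were added.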

Additional observations from a re-analysis of the deposited data

Results flagged for a closer look

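The changes of 26 gene and step pairs differed between the cultures by a test of the difference itself (limma, 8-group fit, feeder change minus feeder-free change, adjusted p under 0.05). For day 7 minus day 0 the differences were -2.85 for Sec24d, -0.97 for Sec24a, -0.89 for Ssr2, -0.84 for Copg1, -0.82 for Sec22b, -0.75 for Sec11a, -0.69 for Kdelr2, -0.64 for Kdelr1 and -0.59 for Sec11c, and 0.94 for Kdelr3 and 0.96 for Sec61a2. Of all 14506 genes, 10.9% had a positive and 11.2% a negative difference in this step.

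For day 17 minus day 7 they were 2.61 for Sec24d, 1.10 for Sec11c, 0.78 for Sec24a, 0.74 for Pdia4, 0.73 for Ssr3, 0.60 for Copg1, 0.56 for both Ssr2 and Sec11a, 0.54 for both Kdelr2 and Ssr4, and 0.52 for Ssr1. For days 17 and 32 minus day 0 they were 0.67 for Ssr3, 0.66 for Sec22a, 0.58 for Hspa5 and -0.58 for Sec22b. Each rests on single feeder arrays. Of all genes, 10.7% had a positive and 8.97% a negative difference for day 17 minus day 7. For days 17 and 32 minus day 0 these shares were 6.96% and 5.75%.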

How the results depend on the processing

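No called gene change of the 113 turned its direction under the 21 alternatives run, but the call was lost in 389 gene and setting pairs. The replicate block lost 33 of the 113 calls, array weights 29, and trend and robust settings 0. For day 7 against day 0, 6 calls became 11 with array weights, 1 with the replicate block, 15 in the 8-group fit (13 rises), 23 in the feeder-free arrays alone (21 rises) and 2 with a log2 change of at least 0.5. For day 17 against day 7, 20 calls became 6 (5 rises, 1 fall) after a further quantile normalization, 8 with the block, 35 in the 8-group fit and 10 with the minimum change. For day 32 against day 17, 0 calls became 2 with array weights, 1 in the 8-group fit, 2 feeder-free alone and 1 with the arrays of days 17 and 32 alone. For feeder against feeder-free, 27 calls became 14 with the minimum change. The culture difference of the first step went to 20 calls after quantile normalization, 18 with trend and robust settings and 1 with array weights, from 11. That of the second step went from 11 to 20, 19 and 1 in the same order, and 7 with the block. That of the whole course went from 4 to 10 with trend and robust settings, 0 with array weights and 2 with the block. Sec24d remained called in both steps with array weights.

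Leaving out 1 array gave 0 to 22 calls for day 7 against day 0, 2 to 22 for day 17 against day 7 (lowest without the second feeder-free array of day 17), 0 to 0 for day 32 against day 17, 25 to 36 for days 17 and 32 against day 0 and 21 to 29 for feeder against feeder-free. For the culture differences only 8, 9 and 7 of the 11 arrays could be left out, since a group of 1 array in the contrast cannot be, and the counts were 9 to 11, 5 to 11 (lowest without the second feeder-free array of day 7) and 2 to 4 (lowest without the second feeder-free array of day 32). The cause was not tested. Same-numbered feeder-free arrays did not deviate together (correlations 0.0341, -0.195 and -0.0991), but so few pairs cannot show whether the replicate numbers pair anything. Single feeder arrays and a day 0 with 1 array per culture limit every value, and signal over background is not known per probe.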
